A study of Mus musculus with 24 samples.

Results

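Integrins and the adaptor proteins that tie them to actin were followed in oligodendrocytes (OLs) and in whole tissue of the mouse spinal cord after contusion. The genes were chosen by name, with earlier results of these data known. The study had already named Parvb and Itgad among mRNAs raised in OLs 2 days after injury. Taken was every row of the count table whose mouse symbol is that of an integrin alpha or beta subunit, plus 14 partners of focal adhesions (Ilk, Parva, Parvb, Parvg, Lims1, Lims2, Fermt1, Fermt2, Fermt3, Tln1, Tln2, Vcl, Pxn and Ptk2). This gave 40 of the 21965 genes in the table, with 18 alpha subunits, 8 beta subunits and 14 partners. The tissue came from female OL-Ribotag mice, in which tamoxifen, through an inducible Cre active in OLs, switches on an HA-tagged ribosomal protein (rpl22HA). Every group, controls included, carried both alleles and was given tamoxifen. The Cre is also active in Schwann cells, and fragments of nerve root can be in the tissue. Naive mice had no injury, and the others received a T9 contusion of 50 kdyn and were sampled at 2, 10 or 42 days post-injury (dpi). No group had laminectomy alone. In comparisons with naive, the contusion thus cannot be told apart from the surgery and the drugs given with it. The labels give an age of 10 to 12 weeks, and the study's methods state a younger age at injury. Naive and dpi 42 tissue was, as the study states, taken on the same day, 10 weeks after tamoxifen began. By its schedule, mice of dpi 2 and dpi 10 were younger and nearer to tamoxifen than naive mice. In comparisons of dpi 2 or dpi 10 with naive, these differences cannot be told apart from injury. In each of these 4 groups 3 tissue pools of 2 mice were homogenized, and each pool gave 1 library of polysome-associated mRNA from all cells (total RNA) and 1 library of mRNA bound to HA-tagged ribosomes (OL).

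The 24 libraries held 25840127 to 32987841 counts on genes. Levels are given as CPM, the count scaled to the library size with TMM factors, and 3 counts in a library correspond to 0.0840 to 0.127 CPM. The OL markers Mag, Mog, Cldn11, Ermn, Opalin and Mobp exceeded their total RNA level in the OL libraries of each of the 4 groups, by 1.502 (Mobp) to 3.40 (Mag) in log2, both of these in naive tissue. The OL library of naive pool 3 stood apart from the other naive OL libraries: 5 astrocyte markers summed to 983, 791 and 4488 CPM and 6 Schwann cell markers to 64.7, 62.5 and 683 CPM in pools 1, 2 and 3. In total RNA of these pools the astrocyte sums were 3362, 2929 and 2266 CPM and the Schwann cell sums 26.5, 20.9 and 188 CPM. The Schwann cell sum of pool 3 was thus high in both RNAs, and its astrocyte sum in OL alone. In the injured OL libraries the Schwann cell sum was 247 to 728 CPM on dpi 2, 907 to 1586 at 10 days and finally 1236 to 1444 at 42 days. Pool 2 of dpi 2 held Y-linked counts (2414 in OL and 2604 in total RNA, against 13 or fewer in any other library) although the mice are described as female. Titles and descriptions of 2 dpi 42 libraries (total RNA and OL of pool 1) conflict, and these were placed by the descriptions. Calls that the text rests on and that change without these libraries are given with and without them.

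Integrins are cell-surface receptors made of 1 alpha and 1 beta subunit that bind matrix proteins or receptors on other cells. The tail of the beta subunit recruits talins and kindlins (Fermt genes), which switch the receptor to its active state. The tail is then linked to actin through vinculin, paxillin and the complex of integrin-linked kinase (Ilk), PINCH (Lims genes) and parvin (Parv genes), and focal adhesion kinase (Ptk2) signals from the same site. In the OL lineage, integrins with the beta1 or the alphav subunit are known for their part in survival, process growth and myelination. Beta2 integrins, kindlin-3 and gamma-parvin are known from leukocytes and microglia.

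Levels between genes were compared after division by exon length (RPKM from the scaled counts, GENCODE M21 exons). In naive OL, Itgb4 had the highest level of the 26 subunits at 92.3 ± 23.4 RPKM (mean ± SD, n = 3), followed by Itgb1 at 57.5 ± 2.25, Itgav at 38.3 ± 3.69, Itgb5 at 35.9 ± 3.23 and Itgb8 at 16.8 ± 1.56. Itgav and Itgb5 did not differ beyond their spread. The alphav subunit, which pairs with beta1, beta3, beta5, beta6 or beta8, took 90.6, 90.9 and 76.2% of the summed RPKM of the 18 alpha subunits in the 3 naive OL libraries, against 36.0, 31.7 and 33.8% in total RNA. Next by the mean was Itga6 at 0.624, 0.473 and 5.36 RPKM, a rank that rests on pool 3, since Itga3 (1.72, 1.82 and 1.13 RPKM) was above it in pools 1 and 2. Among partners, Fermt2 (kindlin-2, 65.3 ± 1.76 RPKM) and Ilk (61.6 ± 2.98 RPKM) were highest, and they did not differ beyond their spread.

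**Figure D1:**
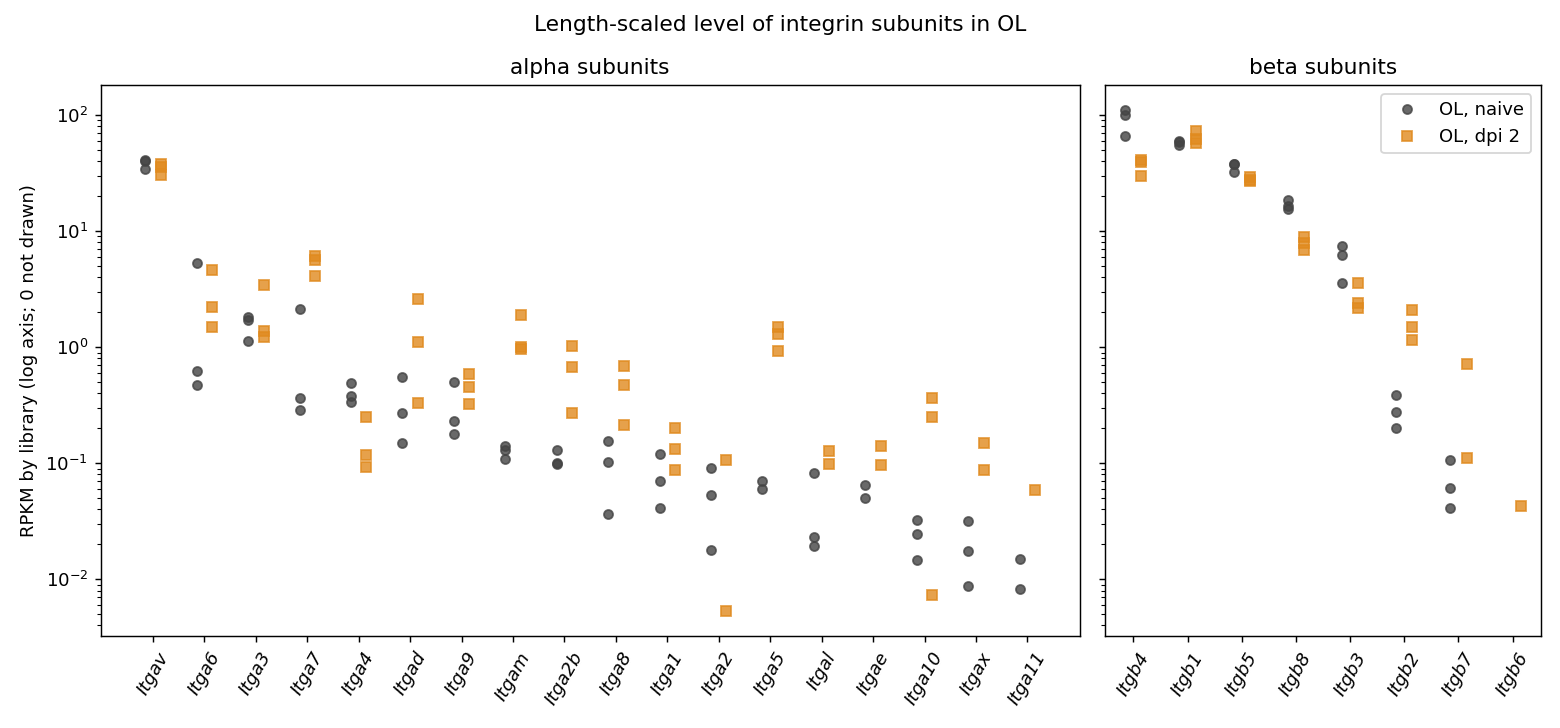
Length-scaled level of the integrin subunits in OL, with RPKM of each library on a log axis (circles naive, squares dpi 2, 3 libraries each, values of 0 not drawn) and genes ordered by their naive mean. Itgav lies above all other alpha subunits in both groups, while Itgb4, Itgb1, Itgb5 and Itgb8 lead the beta subunits.

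The level of Itgb4 was not matched by that of Itga6, which encodes the subunit known as the partner of beta4. The ratio of Itgb4 to Itga6 (RPKM) was 161, 234 and 12.3 in naive OL and 2.04, 2.03 and 1.25 in naive total RNA. It was 27.3, 17.6 and 6.48 in OL on dpi 2, 16.8, 17.2 and 23.96 at 10 days and finally 12.9, 12.9 and 30.2 at 42 days. In each OL library Itgb4 thus exceeded Itga6, and the lowest naive ratio was that of pool 3. A mismatch was also seen for Itgad, the alpha subunit that pairs with beta2: its mRNA was OL enriched while Itgb2 was OL depleted (values below), and Itgb2 over Itgad was 2.59, 1.02 and 0.364 in naive OL against 35.6, 36.4 and 23.8 in naive total RNA.

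Counts of some members are limited by their gene models. Of exon bases, 76.7% of Ilk are shared with Taf10 on the other strand, 68.7% of Itgam with Gm49368 on the same strand, 33.5% of Itga10 with Gm42957 on the same strand and 25.5% of Vcl with Ap3m1 on the other strand. Itgad shares up to 8.60% with each of 4 other models, and Lims2 shares 6.14% with Gpr17 on the other strand. How reads in shared bases were counted is not given in the sources used here, so levels of these genes are uncertain. Fermt1 (kindlin-1) had 3 counts in all libraries together and was not tested, which leaves 39 members. Itgb6 had counts in 1 OL library only.

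OL enrichment (OL against total RNA of the same group, called past 0.5 in log2 with q under 0.05, where q is the edgeR quasi-likelihood p adjusted by Benjamini-Hochberg over 17167 genes) divided the members in naive tissue. Of the 39 tested, 13 were enriched and 15 depleted, while 21.7% of all genes were enriched and 28.6% depleted. The strongest enrichment was that of Itgb4, at 3.38 (SE 0.19, q = 3.9e-12). It was followed by Itgb3 at 2.56 (SE 0.28, q = 9.67e-08), Itgad at 2.32 (SE 0.81, q = 0.0187), talin-1 (Tln1) at 2.20 (SE 0.13, q = 4.7e-12) and Itgav at 1.79 (SE 0.11, q = 1.28e-11). Fermt2 (1.64), Ptk2 (1.46), Ilk (1.21), Itgb1 (1.15), Lims1 (1.06), paxillin (Pxn, 0.99), Itgb5 (0.95) and talin-2 (Tln2, 0.87) were also enriched, with q of at most 2.63e-05. The call of Itgad rested on few counts (16, 29 and 65 in naive OL) and was lost without naive total RNA pool 1 (2.33, q = 0.0502), naive total RNA pool 2 (2.24, q = 0.0577) or naive OL pool 3 (1.85, q = 0.0699). With library sizes alone in place of TMM factors, enrichment of every gene shifts down (-0.509 in the median of all genes), and 9 members were enriched and 16 depleted, with Itgb5, Pxn, Tln2 and Itgad no longer called enriched.

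Depleted in naive OL were Itgam (-3.27), Parvg (-3.15), Parva (-3.12), Itgb2 (-2.82), Itga9 (-2.79), Fermt3 (-2.75), Itga5 (-2.70), Itgax (-2.59), Itga3 (-2.53), Itga1 (-2.14) and Parvb (-1.24), all with q of at most 0.0132. The call of Itgax was lost without naive OL pool 1 (-2.11, q = 0.0775) or naive OL pool 2 (-2.36, q = 0.0595). Itga11, Itga10, Itgb7 and Itga7 passed with q between 0.0383 and 0.0495, and leaving out any 1 of 5, 4, 5 and 5 of the 6 libraries ended their calls, with values between -3.91 and -2.56, -2.44 and -1.67, -2.47 and -1.77, and -2.50 and -0.58. With a block for the tissue pool Itga11, Itga10 and Itgb7 no longer passed (q = 0.124, 0.0603 and 0.0875) and Itga6 did, at -2.10 (q = 0.00588). Without the block Itga6 was not called (-1.22, SE 0.56, q = 0.0712), and it was depleted without naive OL pool 3, at -3.03 (q = 1.92e-07).

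**Figure D2:**
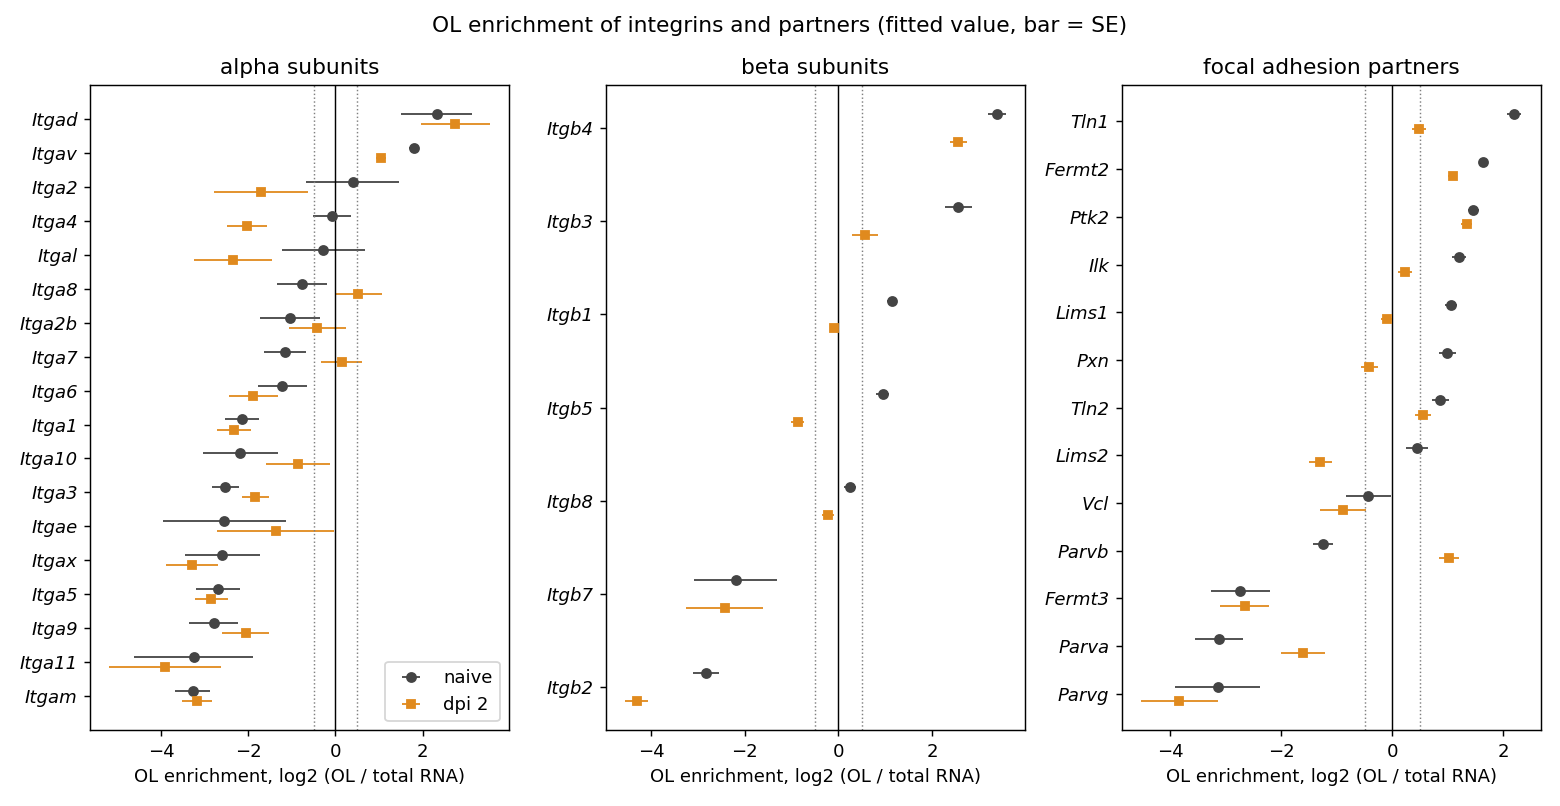
OL enrichment (log2 of OL over total RNA, fitted value with SE) of each tested member except Itgb6, in naive tissue (circles) and on dpi 2 (squares), with dotted lines at 0.5 either side of 0. Itgb4 lies furthest right in naive tissue, and Parvb is on the depleted side in naive tissue and on the enriched side on dpi 2.

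On dpi 2 enrichment was called for 7 and depletion for 17 of 39 members (all genes: 20.5% and 27.2%). The numbers were 9 and 16 on dpi 10 (21.2% and 27.3% of all genes) and 9 and 15 on dpi 42 (21.1% and 27.0%). With library sizes alone the numbers were 4 and 22, 6 and 21, and 6 and 21. Itgb4, Itgav, Fermt2, Ptk2, Tln2 and Itgad were called enriched in each of the 4 groups. Of these calls, that of Tln2 on dpi 2 (0.55) was lost without dpi 2 OL pool 1 (0.39, q = 0.0563) or dpi 2 total RNA pool 2 (0.49, q = 0.0185), that of Itgad on dpi 2 (2.75) without dpi 2 OL pool 2 (1.81, q = 0.0697) and that of Itgad on dpi 10 (1.89) without any 1 of 5 libraries (1.65 to 2.24). Without the 2 libraries with conflicting labels Itgad was not called on dpi 42 (2.001, q = 0.0979), and Itgb1 was called enriched there (0.51, q = 0.00159) and Parvb depleted (-0.59, q = 0.0327). With all libraries Lims1, Pxn and Itgb1 were called in naive tissue alone, and Itgb5 was enriched in naive tissue and depleted at each time after injury (-0.87, -1.24 and -0.96). With a block for the tissue pool Itgal was no longer called depleted on dpi 2 (-2.82, q = 0.0502) and dpi 10 (-2.17, q = 0.0862), while Vcl on dpi 2 (-1.10, q = 0.0118) and Itga6 on dpi 10 (-1.32, q = 0.0359) were.

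Injury against naive asks how ribosome-bound mRNA of OLs responds over time, and a change was called past 1 in log2 with q under 0.05. The members that rose in OL were mostly alpha subunits and leukocyte genes of low naive level plus Parvb, and those that fell were Itgb4, Itgb3, Itgb8, Itga4, Tln2 and Lims2. In OL on dpi 2, 12 members rose and 6 fell, which is 30.8% and 15.4% of the 39, while 10.2% of all genes rose and 6.85% fell. The median change was 0.58 over the members and 0.00 over all genes. On dpi 10, 10 rose and 0 fell (all genes: 6.82% and 1.26%). No fall passed on dpi 10 in edgeR or DESeq2, with 7 members lower at an unadjusted p under 0.05. On dpi 42, 9 rose and 2 fell (all genes: 8.54% and 4.08%). In total RNA the numbers were 14 and 1 on dpi 2 (all genes: 10.0% and 6.33%), 14 and 0 on dpi 10 (9.20% and 3.07%) and 9 and 0 on dpi 42 (6.66% and 0.798%). For the counts of 0 in total RNA, DESeq2 gave 0 as well, and 4 and 5 members were lower at an unadjusted p under 0.05 in edgeR. By role, on dpi 2 in OL, 1 of 8 beta subunits rose and 3 fell, against 7 and 1 of 18 alpha subunits, a contrast that was not tested. In these bulk samples fewer cells of a type and less RNA per cell cannot be told apart.

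Itgb4, known from laminin receptors and hemidesmosomes, had the highest mean OL level (RPKM) of the beta subunits in every group except dpi 2, where Itgb1 had it. In naive OL it was at 704, 776 and 462 CPM and on dpi 2 at 286, 276 and 209 CPM. All dpi 2 libraries were below all naive libraries. The change was -1.33 (SE 0.18, q = 4.29e-06), a 2.52-fold fall, called in all 14 alternatives. On dpi 10 the level was 561, 502 and 499.7 CPM and on dpi 42 it was 358, 369.7 and 507 CPM, with changes of -0.31 and -0.65 that were not called. In total RNA it was at 70.5, 69.0 and 46.8 CPM in naive tissue, 45.3, 45.3 and 39.7 on dpi 2, 59.5, 54.8 and 52.0 at 10 days and finally 60.9, 60.9 and 62.3 at 42 days, below every OL library. Itgb4 was OL enriched by more than 1 in naive tissue and on dpi 2 (2.56), so that its fall passed the second arm of the study's filtration, which asks for such constant enrichment.

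Itgb3, which forms the vitronectin receptor with alphav, was at 36.6, 44.0 and 21.2 CPM in naive OL, 14.2, 21.2 and 12.97 on dpi 2, 32.9, 25.7 and 17.1 at 10 days and finally 15.2, 14.2 and 20.5 at 42 days. Its highest dpi 2 library lies just under the lowest naive library, that of pool 3. The dpi 2 fall was -1.07 (SE 0.27, q = 0.00311), and the call was lost without naive OL pool 2 (-0.91, q = 0.0186). The dpi 42 fall was -1.03 (SE 0.27, q = 0.00535) and was not called in 8 of 14 alternatives, among them without naive OL pool 2 (-0.85, q = 0.0332) or dpi 42 OL pool 2 (-0.97, q = 0.0226) and without the libraries with conflicting labels (-0.97, q = 0.0320). In total RNA Itgb3 was at 5.31, 5.803 and 6.12 CPM in naive tissue, 9.46, 12.5 and 10.7 on dpi 2, 7.39, 11.99 and 8.17 at 10 days and finally 6.80, 7.47 and 6.86 at 42 days. Its dpi 2 difference there of 0.92 (q = 0.0107) did not pass 1.

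Itgb8, whose product with alphav activates latent TGF-beta, was at 181, 171 and 205 CPM in naive OL, 87.6, 76.8 and 97.5 on dpi 2, 118, 128 and 96.8 at 10 days and finally 72.6, 70.6 and 69.1 at 42 days. Every injured OL library was below every naive one. It fell by 1.09 on dpi 2 (SE 0.13, q = 1.04e-06) and by 1.39 on dpi 42 (SE 0.13, q = 1.73e-07) in log2. It was neither enriched nor depleted in OL in any group, and its values in total RNA were also lower after injury (-0.60, -0.57 and -0.87, not past 1), with -1.01 (q = 3.06e-05) on dpi 42 without the libraries with conflicting labels.

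Itgb1, the subunit shared by most matrix receptors, had no called change in OL, at 242, 238 and 224 CPM in naive tissue, 252, 236 and 299 on dpi 2, 278, 272 and 249 at 10 days and finally 194, 211 and 227 at 42 days. Its total RNA levels were 109, 111 and 97.3 CPM in naive tissue, 255, 303 and 276 on dpi 2, 236, 253 and 222 at 10 days and finally 157, 145 and 163 at 42 days. It rose there on dpi 2 by 1.39 (SE 0.10, q = 1.79e-09), with an OL difference of 0.16 (SE 0.10).

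Itgb5, another vitronectin receptor subunit, was at 134, 134 and 114 CPM in naive tissue, 98.9, 96.2 and 105 on dpi 2, 158, 133 and 144 at 10 days and finally 149, 149.5 and 169 at 42 days in OL, with dpi 2 below the naive range and no called change. In total RNA it was at 76.8, 69.4 and 51.7 CPM in naive tissue, 176, 184 and 189 on dpi 2, 335, 397 and 299 at 10 days and finally 245, 345 and 323 at 42 days. Total RNA Itgb5 rose at each time, by 1.47, 2.38 and 2.20, and no total library of an injured group overlapped the naive ones.

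**Figure D3:**
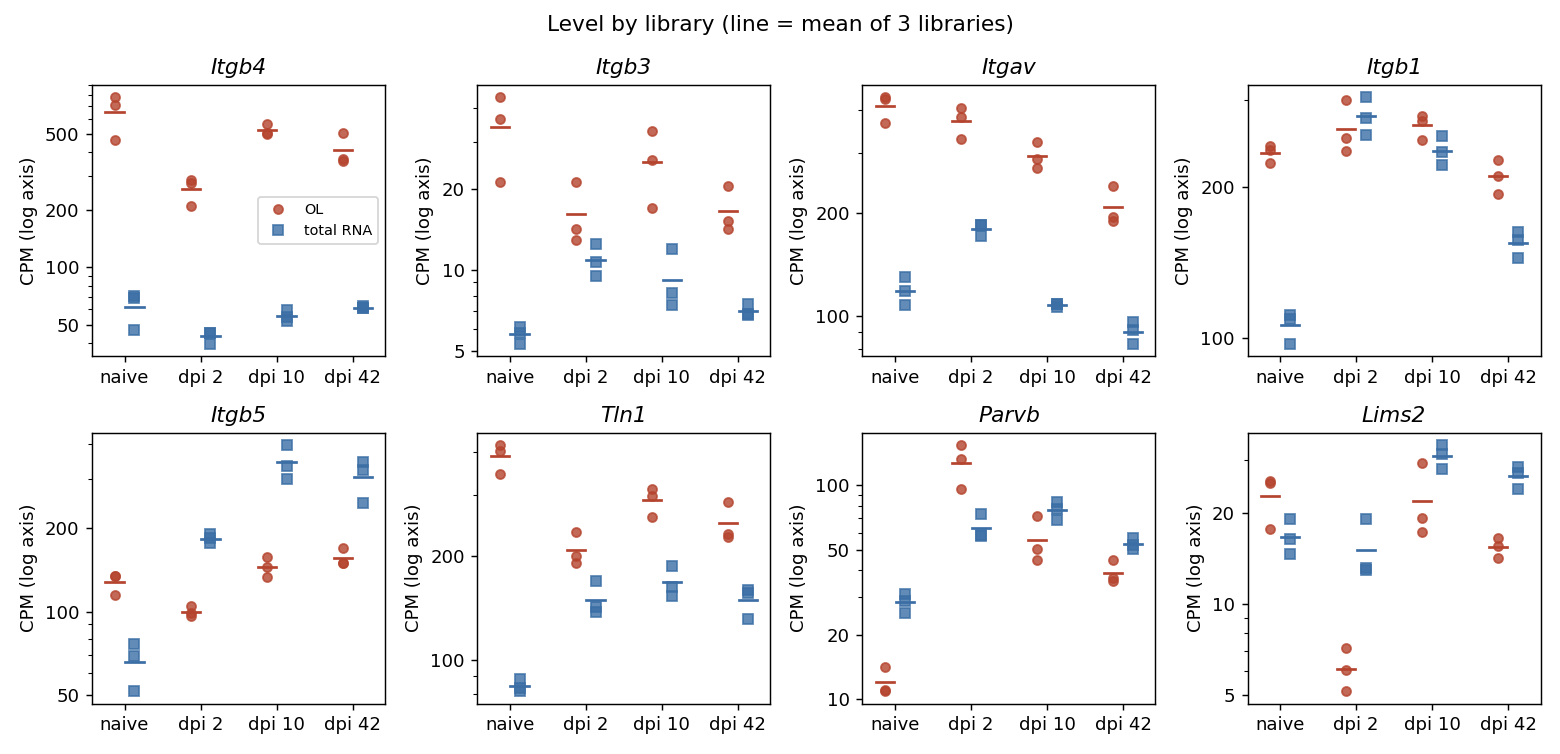
CPM of 8 members in each library on log axes, OL as circles and total RNA as squares, with a line at the mean of 3 libraries. Itgb5 and Itgb1 rise in total RNA and have no called change in OL, Itgb4 and Lims2 are lowest in OL on dpi 2, and Parvb is highest in OL on dpi 2.

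Of the alpha subunits, Itgav had the highest OL level throughout, at 437, 433 and 366 CPM in naive tissue, 405, 383 and 329 on dpi 2, 323, 288 and 272 at 10 days and finally 190.0, 195 and 240.4 at 42 days. The dpi 42 libraries were all below the naive ones, and the difference of -0.98 (SE 0.11, q = 1.21e-06) did not pass the size threshold. It passed without naive OL pool 2 (-1.001, q = 1.65e-05), naive OL pool 3 (-1.12, q = 8.72e-07) or dpi 42 OL pool 3 (-1.18, q = 4.1e-07). In total RNA Itgav was at 130.04, 108 and 119 CPM in naive tissue, 185, 172 and 184 on dpi 2, 108, 106 and 109 at 10 days and finally 90.9, 83.2 and 96.5 at 42 days. Its share of the summed alpha subunit RPKM in OL was 75.4, 66.6 and 62.1% on dpi 2, 69.5, 67.5 and 63.3% in the dpi 10 libraries and 54.8, 64.1 and 68.4% on dpi 42.

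Itga4, whose product binds fibronectin and VCAM-1, was at 6.89, 4.70 and 5.35 CPM in naive OL and 3.48, 1.30 and 1.64 on dpi 2. All dpi 2 libraries were below the naive ones, and the fall was -1.40 (SE 0.46, q = 0.0193). This call was lost without naive OL pool 1 (-1.28, q = 0.0601), dpi 2 OL pool 2 (-1.19, q = 0.0779) or dpi 2 OL pool 3 (-1.29, q = 0.0619). In OL on dpi 10 its level was 5.24, 3.84 and 8.79 CPM and on dpi 42 1.57, 1.23 and 5.40 CPM, with pool 3 the highest of its group at both times. In total RNA Itga4 was at 6.49, 5.77 and 5.55 CPM in naive tissue, 7.05, 7.63 and 11.5 on dpi 2, 19.4, 21.9 and 17.4 at 10 days and finally 7.70, 10.7 and 12.3 at 42 days, and it rose on dpi 10 by 1.72 (SE 0.45, q = 0.00488).

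Itgad was at 0.672, 1.23 and 2.49 CPM in naive OL, 5.03, 11.8 and 1.49 on dpi 2, 2.99, 1.22 and 2.74 at 10 days and finally 2.55, 1.53 and 0.665 at 42 days. In total RNA it was at 0.295, 0.258 and 0.317 CPM in naive tissue, 0.644, 1.79 and 0.272 on dpi 2, 0.890, 0.577 and 0.401 at 10 days and finally 0.120, 0.343 and 0.199 at 42 days. The OL rise on dpi 2 was 2.06 (SE 0.77, q = 0.0389), with 1 of 3 dpi 2 libraries inside the naive range. The pool with Y-linked counts, dpi 2 pool 2, has the highest value, and without both of its libraries the difference was 1.15 (q = 0.257). Leaving out naive OL pool 1 or 2 or dpi 2 OL pool 1 ended the call too (1.65, 1.88 and 2.11, q of 0.0552 to 0.155).

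Other alpha subunits rose in OL from low levels. Itga5, the fibronectin receptor subunit, went from 0, 0.296 and 0.344 CPM in naive OL to 7.37, 4.62 and 6.39 on dpi 2, and in total RNA from 1.11, 1.45 and 1.71 to 42.5, 54.5 and 35.1 CPM. Its OL changes of 4.80, 4.40 and 3.76 were all called, as were those of total RNA (4.94, 4.28 and 3.48). Itga10, a collagen receptor subunit, rose at each time in OL (3.09, 4.20 and 2.65) over naive counts of only 4, 3 and 2, and its dpi 2 libraries (0.0378, 1.90 and 1.30 CPM) overlapped the naive ones. Its call was lost on dpi 2 without dpi 2 OL pool 2 (2.34, q = 0.0507) and on dpi 42 without naive OL pool 2 (2.62, q = 0.0692), naive OL pool 3 (2.35, q = 0.0766) or dpi 42 OL pool 3 (2.33, q = 0.0601). Itga8 rose as well (2.22, 2.01 and 1.97), with the dpi 10 call lost without naive OL pool 2 (2.05, q = 0.0573), naive OL pool 3 (1.61, q = 0.0729) or dpi 10 OL pool 1 (1.87, q = 0.0512) and the dpi 42 call without naive OL pool 3 (1.51, q = 0.0605). Itga2b, the platelet subunit, rose on dpi 2 in OL (2.58, SE 0.71, q = 0.00619). There 4 platelet markers summed to 0, 0 and 0.153 CPM in naive and 0.113, 1.82 and 1.19 CPM in dpi 2 libraries. All of these counts were those of Pf4, while Ppbp, Gp9 and Gp1bb had none in these OL libraries. The part of platelet RNA in the result was not tested. Itga1 was called in OL on dpi 10 (1.31, SE 0.39, q = 0.0224), a call lost without naive OL pool 1 (1.25, q = 0.0813), naive OL pool 3 (1.0002, q = 0.0951), dpi 10 OL pool 1 (1.22, q = 0.0645) or dpi 10 OL pool 3 (1.26, q = 0.0635). Itga3 and Itga9 were depleted in OL in each group and had no called change, and neither had Itga2, Itga11, Itgae and Itgb6, whose highest level in any naive OL library was 0.650 CPM.

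Itga6, Itga7, Parva and Vcl shared a feature in naive OL: pool 3 was far above pools 1 and 2. Itga6 was at 5.63, 4.27 and 48.3 CPM, Itga7 at 2.94, 2.33 and 17.1, Parva at 14.5, 14.1 and 46.0 and vinculin (Vcl) at 13.2, 15.9 and 46.6, beside astrocyte sums of 983, 791 and 4488 CPM. In total RNA of the same pools no such gap was seen, with Itga6 at 44.4, 43.8 and 48.0 CPM, Itga7 at 17.05, 18.4 and 14.7, Parva at 216, 219 and 216 and Vcl at 31.9, 32.4 and 37.9. Itga7, a laminin receptor subunit, rose on dpi 2 with pool 3 in the fit (2.51, SE 0.50, q = 0.000423), at 32.96, 49.3 and 45.6 CPM. There the library with the highest Itga7 had the lowest astrocyte sum (2245, 817 and 6584 CPM) and the highest Schwann cell sum (247, 728 and 327 CPM) of the group. Without naive OL pool 3 Itga7 was also called on dpi 10 (2.49, q = 2.29e-05) and dpi 42 (2.11, q = 6.12e-05). Parva was called on dpi 2 (1.15, SE 0.40, q = 0.0273) at 30.7, 39.2 and 96.1 CPM, a call lost without naive OL pool 1 (0.82, q = 0.152), naive OL pool 2 (0.80, q = 0.155) or dpi 2 OL pool 3 (0.43, q = 0.389), the last being the library with the highest astrocyte sum of dpi 2.

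Itga6, a laminin receptor subunit, was in OL at 5.63, 4.27 and 48.3 CPM in naive tissue, 13.5, 20.1 and 41.5 on dpi 2, 43.0, 37.6 and 26.8 at 10 days and finally 35.6, 36.9 and 21.6 at 42 days. Its total RNA levels were 44.4, 43.8 and 48.0 CPM in naive tissue, 95.0, 95.4 and 86.3 on dpi 2, 94.9, 97.2 and 73.0 at 10 days and finally 65.0, 68.7 and 71.4 at 42 days. It had no called change in OL (0.36, 0.88 and 0.69), but without naive OL pool 3 it was higher at each time, by 2.27, 2.85 and 2.598, with q of at most 1.97e-05. Without that library Parva was called on dpi 10 (1.03) and dpi 42 (1.26) as well, and Vcl was depleted in naive OL (-1.07, q = 0.0169). Vcl had no called change in OL or in total RNA at any time. The astrocyte sums in OL were 1686, 5293 and 2109 CPM on dpi 10 and 10867, 8622 and 1655 CPM on dpi 42, each above those of naive OL pools 1 and 2. Against naive, with naive OL pool 3 in the fit, the markers in this sum did not move together in OL. On dpi 2, 10 and 42 Gfap changed by 1.11, 0.92 and 2.26 and Slc1a3 by -1.87, -1.09 and -0.60. Gja1 changed by -1.76, -1.06 and -0.08, Aqp4 by -0.66, 0.18 and 0.43 and Aldh1l1 by 0.56, -0.62 and 0.33. Only Slc1a3 on dpi 2 (q = 0.000834) and Gfap on dpi 42 (q = 0.0163) were called. The part of astrocyte or Schwann cell RNA in the values of Itga6, Itga7, Parva and Vcl was not tested.

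**Figure D4:**
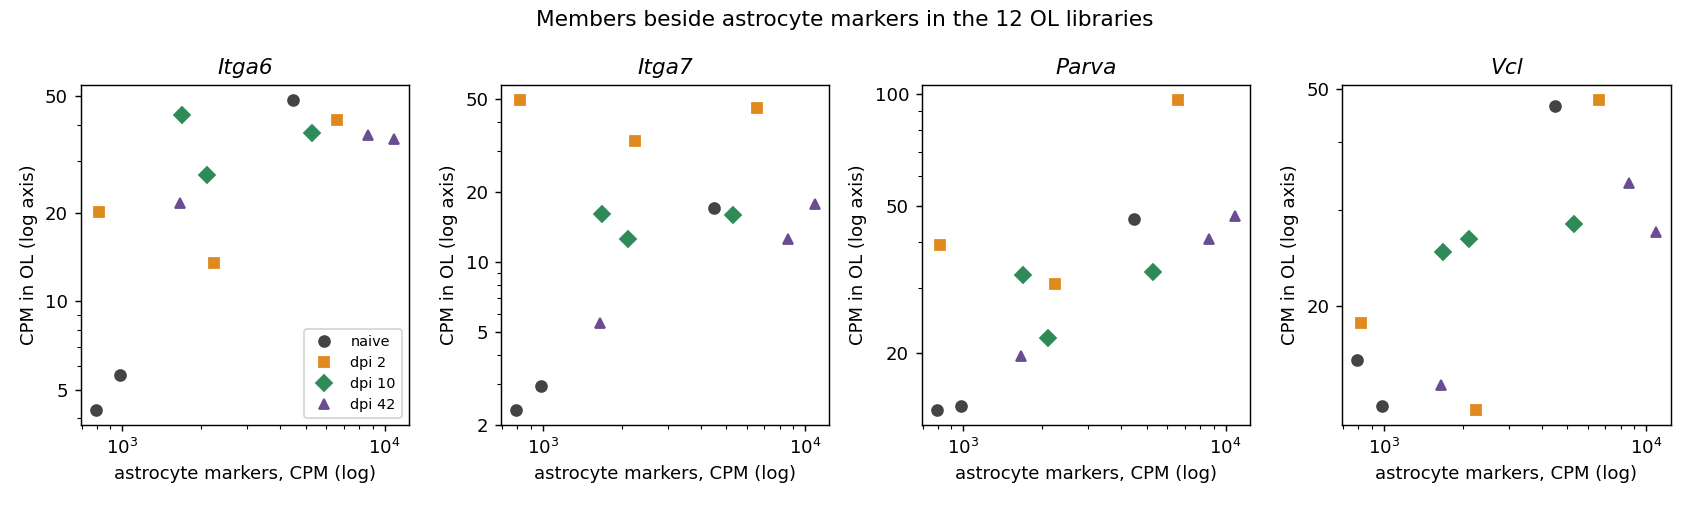
CPM of Itga6, Itga7, Parva and Vcl in the 12 OL libraries (log axis) against the summed CPM of 5 astrocyte markers in the same library (log axis), by group. The naive library with 4488 CPM of astrocyte markers has the highest naive value of all 4 genes.

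Among partners, Parvb rose more in OL than in total RNA on dpi 2. It encodes beta-parvin, a member of the ILK-PINCH-parvin complex. It was at 10.8, 10.999 and 14.1 CPM in naive OL, 133, 154 and 96.6 on dpi 2, 72.2, 44.6 and 50.1 at 10 days and finally 44.5, 36.7 and 35.6 at 42 days. Total RNA held it at 25.2, 28.8 and 31.1 CPM in naive tissue, 58.4, 73.3 and 58.1 on dpi 2, 83.9, 77.4 and 68.9 at 10 days and finally 50.1, 52.3 and 56.4 at 42 days. Each injured OL library was above each naive one, and the dpi 2 libraries were the highest. Parvb rose in OL by 3.42 (SE 0.19, q = 6.43e-11) on dpi 2, which is 10.7-fold, by 2.21 (SE 0.19, q = 4.83e-08) on dpi 10 and by 1.70 (SE 0.18, q = 1.02e-06) on dpi 42. Its total RNA change was 1.16, 1.43 and 0.90, the last not called. From OL depleted in naive tissue (-1.24, SE 0.18, q = 5.04e-06) it became OL enriched on dpi 2 (1.02, SE 0.18, q = 5.42e-05), a call lost with library sizes alone (0.44, q = 0.0384). No alternative ended its OL rise at any time. On dpi 2 it was 1 of 2 members whose rise passed the study's filtration, Itgad being the other, where 2.11% of all genes did.

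Parva encodes alpha-parvin, which takes the same place in the complex. The ratio of Parvb to Parva (RPKM) was 1.73, 1.80 and 0.704 in naive OL, 9.92, 9.07 and 2.31 on dpi 2, 5.11, 3.10 and 5.25 at 10 days and finally 2.18, 2.08 and 4.16 at 42 days. In naive total RNA it was 0.269, 0.302 and 0.331. Every injured OL library thus had a higher ratio than every naive one, and dpi 2 pool 3, with its high Parva, was the lowest of its group.

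Of the PINCH genes, Lims2 fell on dpi 2 and Lims1 had no called change. Lims2 (PINCH-2) was at 25.5, 25.3 and 17.8 CPM in naive OL, 7.14, 5.14 and 6.04 on dpi 2, 19.3, 17.4 and 29.3 at 10 days and finally 14.2, 15.6 and 16.6 at 42 days, so that dpi 2 lies below all other groups. The fall on dpi 2 was -1.90 (SE 0.21, q = 4.3e-07), called in all 14 alternatives. Its total RNA levels were 19.1, 16.5 and 14.7 CPM in naive tissue, 13.2, 19.1 and 12.9 on dpi 2, 28.1, 33.7 and 31.5 at 10 days and finally 24.2, 27.3 and 28.5 at 42 days, with a dpi 2 difference of -0.15 (q = 0.601), and the later OL changes of -0.06 and -0.57 were not called. Lims1 (PINCH-1) was at 83.6, 73.9 and 62.3 CPM in naive OL, 51.8, 47.8 and 56.7 on dpi 2, 60.7, 57.3 and 51.9 at 10 days and finally 41.9, 47.6 and 48.9 at 42 days, with no called change. Total RNA Lims1 was at 35.5, 37.0 and 32.8 CPM in naive tissue, 56.2, 54.7 and 56.2 on dpi 2, 51.5, 54.3 and 48.4 at 10 days and finally 41.3, 37.7 and 37.8 at 42 days. Lims1 over Lims2 (RPKM) was 2.05, 1.83 and 2.19 in naive OL and 4.54, 5.81 and 5.86 on dpi 2. Ilk, which binds both, was at 169, 177 and 161 CPM in naive OL, 139, 109 and 176 on dpi 2, 164, 147 and 140.1 at 10 days and finally 134, 122 and 133 at 42 days, and its changes of -0.26, -0.17 and -0.38 were not called. In total RNA Ilk was at 71.9, 76.0 and 71.5 CPM in naive tissue, 115, 128 and 118 on dpi 2, 91.3, 102 and 89.3 at 10 days and finally 88.1, 97.6 and 80.4 at 42 days.

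Of the integrin activators, Tln1 was at 402, 418 and 344 CPM in naive OL, 191, 199.5 and 235 on dpi 2, 313, 259 and 299 at 10 days and finally 227, 231 and 287 at 42 days. All injured OL libraries were below the naive ones, and the dpi 2 difference of -0.90 (SE 0.12, q = 5.52e-06) stayed short of 1 with all libraries and passed it without naive OL pool 3 (-1.04, q = 2.91e-06) or dpi 2 OL pool 3 (-1.05, q = 6.46e-06). In total RNA it was at 88.5, 83.3 and 81.4 CPM in naive tissue, 138, 142 and 169 on dpi 2, 154, 188 and 162 at 10 days and finally 132, 156 and 159 at 42 days, higher in every injured library than in any naive one.

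Tln2 fell on dpi 2 in OL (-1.63, SE 0.15, q = 2.75e-08, from 343, 348 and 230.1 to 112, 98.3 and 87.0 CPM) and in total RNA (-1.31, SE 0.15, q = 6.03e-07), the only called fall of a member in total RNA against naive. Fermt2 was at 334, 349.6 and 333 CPM in naive OL, 219, 205 and 183 on dpi 2, 267, 240.3 and 235 at 10 days and finally 179.8, 195 and 184 at 42 days, lower in every injured library, with differences of -0.74, -0.45 and -0.86 that did not pass the size threshold. Total RNA Fermt2 stood at 108, 110.1 and 108 CPM in naive tissue, 93.2, 90.7 and 102 on dpi 2, 88.0, 88.0 and 89.8 at 10 days and finally 92.1, 91.5 and 80.9 at 42 days. Ptk2 was at 149, 169 and 139.7 CPM in naive OL, 143, 148 and 130.3 on dpi 2, 131, 138 and 123 at 10 days and finally 102, 99.9 and 129 at 42 days. Total RNA Ptk2 was at 58.2, 56.97 and 51.3 CPM in naive tissue, 58.3, 54.1 and 54.2 on dpi 2, 45.9, 50.4 and 50.4 at 10 days and finally 45.8, 45.8 and 45.4 at 42 days. It was enriched in each group, by 1.46, 1.34, 1.42 and 1.27, and had no called change in either RNA.

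Leukocyte members (Itgam, Itgax, Itgb2, Itgal, Fermt3 and Parvg) were low in OL, and 5 of these 6 rose in OL on dpi 10 and dpi 42, when 6.82% and 8.54% of all genes rose. These 6 were picked by hand. Itgad, Itga4, Itgae and Itgb7, other subunits of leukocyte integrins, had no called rise in OL on dpi 10 or dpi 42. Itgb2, the common subunit of leukocyte integrins, was at 1.18, 0.846 and 0.612 CPM in naive OL and 4.57, 3.52 and 6.43 on dpi 2, against 7.11, 6.35 and 5.10 and 93.8, 95.0 and 98.9 CPM in total RNA. The change was 2.47 in OL and 3.95 in total RNA. Itgam (CD11b) rose in OL by 3.33, 3.17 and 2.41 and Fermt3 (kindlin-3) by 3.64, 3.13 and 2.40, with q of at most 0.00158. Fermt3 and Itgam libraries did not overlap the naive ones at any time. Parvg was called at each time (2.20, 2.90 and 2.19), but on dpi 2 its libraries (0.756, 0 and 3.60 CPM) overlapped the naive ones (0.462, 0.169 and 0.306 CPM) and the call was lost without naive OL pool 2 (1.85, q = 0.118), naive OL pool 3 (2.12, q = 0.0731) or dpi 2 OL pool 3 (0.24, q = 0.871). The later calls of Parvg were lost without naive OL pool 2 (2.61, q = 0.0577) on dpi 10 and without any 1 of 4 libraries on dpi 42 (1.74 to 2.51), as well as without the libraries with conflicting labels (2.37, q = 0.0518). Itgal was called in total RNA at each time (2.91, 4.40 and 4.08) and not in OL. Beside them, 9 myeloid markers summed to 18.4 to 25.3 CPM in naive OL, 76.6 to 98.3 on dpi 2, 247 to 278 at 10 days and finally 158 to 254 at 42 days, and to 213 to 255, 1338 to 1562, 3691 to 4992 and 2133 to 3183 CPM in total RNA. Their part in the OL values was not tested. The study proposes that microglia and macrophage mRNAs raised in OL after injury, Itgam among them, are contamination from other cells. Its filtration was made to reduce this. No OL rise of these 6 genes passed that filtration at any time.

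Promoter sequences are shown for Itgam and Parvg, which are among the members that rose in both RNAs, and for Parvb, which lies before Parvg on chromosome 15 (chr15:84232043-84315688 and chr15:84324026-84342978 in the GRCm38 annotation, both on the plus strand) and rose more in OL. The 250 bases before a start site were read from RefSeq promoter windows (GRCm38.p6), which covered 27 of 40 members. The motif GAGGAA, the core bound by ETS factors such as PU.1, is in capitals on either strand (TTCCTC on the other), and 23.3% of the 32851 windows hold it. The window of Itgam is chr7:128062390-128062639, the first of 2 windows of Parvg is chr15:84324470-84324719 and that of Parvb is chr15:84231793-84232042, all on the plus strand.
Itgam: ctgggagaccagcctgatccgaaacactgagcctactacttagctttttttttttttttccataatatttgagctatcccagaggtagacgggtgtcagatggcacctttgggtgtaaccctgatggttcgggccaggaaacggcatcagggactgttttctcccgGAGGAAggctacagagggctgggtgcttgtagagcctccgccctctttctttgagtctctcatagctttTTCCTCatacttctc
Parvg: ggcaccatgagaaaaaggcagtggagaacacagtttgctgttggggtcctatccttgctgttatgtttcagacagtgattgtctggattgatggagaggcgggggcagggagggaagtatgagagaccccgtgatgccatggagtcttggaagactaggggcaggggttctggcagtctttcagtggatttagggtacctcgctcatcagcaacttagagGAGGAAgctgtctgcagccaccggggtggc
Parvb: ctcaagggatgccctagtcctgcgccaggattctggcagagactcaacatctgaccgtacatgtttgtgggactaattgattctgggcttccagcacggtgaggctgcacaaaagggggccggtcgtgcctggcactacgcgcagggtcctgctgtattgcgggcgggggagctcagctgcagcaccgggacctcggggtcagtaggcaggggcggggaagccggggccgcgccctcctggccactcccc
The Itgam window holds the motif 2 times, the first Parvg window 1 time and the Parvb window 0 times. The second Parvg window (chr15:84325869-84326118), not shown, holds it 0 times. Of the 33 windows of the 27 members, 11 hold it (33.3%), each of another member, among them Itgav, Itgb1, Lims1 and Tln1, which are OL enriched in naive tissue. Itga5, Fermt3 and Itgax also rose in both RNAs. The motif is in a window of Itga5 and in no window of Fermt3 or Itgax, so the genes shown do not stand for all that rose. A match is a description of the letters, not a site shown to be bound. ACAAAG, a SOX core, is in 3 of them (9.09%, against 16.5% of all windows), and TGACTCA, the AP-1 site, in a window of Itgax alone (4.46% of all windows).

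Differential OL enrichment is the OL change minus the total RNA change and was tested as an interaction, called past 1 with q under 0.05. On dpi 2, 1 of 39 members was higher and 9 were lower, where 3.35% and 2.92% of all genes were. On dpi 10 the numbers were 0 and 3 (all genes: 1.48% and 1.43%) and on dpi 42 0 and 4 (all genes: 1.56% and 1.42%). For the 0 higher values DESeq2 gave 0 too, with 1 member higher at an unadjusted p under 0.05 on dpi 10 and 1 on dpi 42 in edgeR. Parvb was the member with a higher value on dpi 2, at 2.26 (SE 0.25, q = 6.51e-06). Itgb5 (-1.82, -2.20 and -1.92) and Tln1 (-1.72, -1.41 and -1.46) were lower at all 3 times, with q of at most 3.49e-05. Pxn, whose product is a scaffold of the adhesion, was lower on dpi 2 (-1.40, SE 0.21, q = 0.000106) and dpi 10 (-1.15, SE 0.21, q = 0.00137), as its total RNA rose from 20.0005, 20.99 and 24.1 to 47.8, 54.6 and 56.3 CPM and its OL level on dpi 2 was 34.5, 35.7 and 48.9 CPM. On dpi 2 Itgb3, Itga4, Lims2, Itgb2, Itgb1 and Lims1 were also lower (-1.996, -1.95, -1.75, -1.49, -1.23 and -1.16), and on dpi 42 Itgb3 (-1.32) and Lims2 (-1.24). The calls of Itga4 on dpi 2 and of Itgb3 on dpi 42 were lost without any 1 of 8 libraries each (values -2.72 to -1.70 and -1.72 to -1.25, largest q 0.108 and 0.0824). With a block for the tissue pool, Ilk passed on dpi 2 (-1.001, q = 0.00338) and Itgb3 did not on dpi 42 (-1.28, q = 0.0546). Without the libraries with conflicting labels Itgb3 was not called on dpi 42 (-1.29, q = 0.0964) and Pxn was (-1.003, q = 0.00829).

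The number of called members depended on naive OL pool 3: without it, 15, 11 and 9 members had differential OL enrichment on dpi 2, 10 and 42. Those gained include Itga7 and Parva with higher values at each time (2.59 and 2.10 on dpi 2). Without OL pool 1 of dpi 10 the dpi 10 number was 6, without any 1 of total RNA naive pool 1, naive OL pool 2, or OL pool 2 or 3 of dpi 10 it was 5, and without OL pool 3 of dpi 42 the dpi 42 number was 8. Falls that passed the study's filtration were those of Itgb3, Itgb4, Lims2 and Itga4 on dpi 2 (1.74% of all genes) and Itgb3 on dpi 42 (0.722%). No rise of a member passed it on dpi 42 (1.16% of all genes), and no change of a member passed it on dpi 10 (0.693% higher and 0.175% lower).

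**Figure D5:**
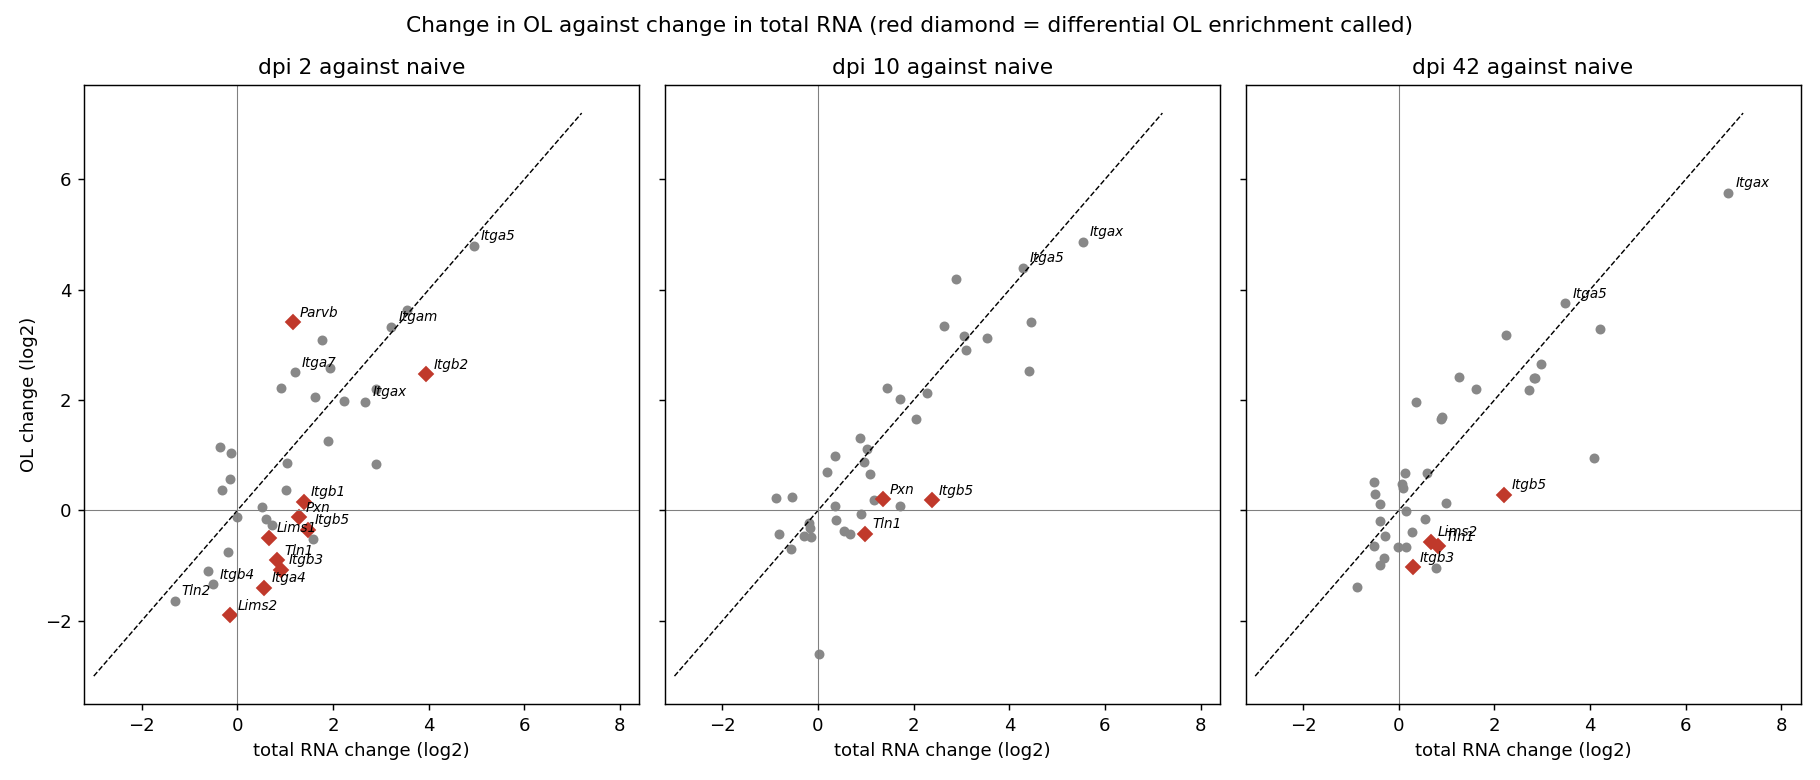
Change in OL (y axis, log2) against change in total RNA (x axis, log2) for each tested member except Itgb6, at 3 times against naive, with the dashed line where both are equal. Red diamonds mark called differential OL enrichment: all lie below the line except Parvb on dpi 2.

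The comparison of dpi 42 with dpi 2 asks which members differ between the late and the acute tissue. By the study's schedule, mice of dpi 42 were also older and further from tamoxifen. These differences cannot be told apart from time after injury. In OL, 2 members were higher on dpi 42 and 2 lower (all genes: 3.68% and 2.73%), and in total RNA 1 was higher and 1 lower (0.874% and 1.73%). Itgax (CD11c) was higher in OL (3.78, SE 0.60, q = 0.000142) and in total RNA (4.21, SE 0.53, q = 2.57e-05), with OL values of 0.0420, 0.0846 and 0.153 CPM in naive tissue, 0.718, 0 and 0.421 on dpi 2, 1.01, 3.35 and 4.30 at 10 days and finally 5.28, 3.25 and 7.51 at 42 days. Lims2 was higher on dpi 42 in OL (1.34, SE 0.21, q = 0.000128), while Parvb (-1.72, SE 0.18, q = 1.39e-06) and Itga7 (-1.83, SE 0.49, q = 0.0121) were lower. In total RNA Itga5 was lower (-1.47, SE 0.35, q = 0.00896), a call lost without dpi 2 total RNA pool 2 (-1.28, q = 0.0689). The OL number of 4 was 8 without dpi 2 OL pool 1, 8 without dpi 2 OL pool 3 and 7 without dpi 42 OL pool 3, and the total RNA number of 2 was 4 without dpi 42 total RNA pool 3. Without the libraries with conflicting labels Itga9 (-1.54, q = 0.0323) and Tln2 (1.12, q = 6.94e-05) passed in OL too, and Itgav (-1.003, q = 6.61e-05) in total RNA.

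Other genes of the pathway were counted in the same OL comparisons in 4 lists. Of 37 tested extracellular ligands, 16 rose and 1 fell on dpi 2, 17 rose on dpi 10 and 18 on dpi 42, or 43.2%, 45.9% and 48.6% rising, with median changes of 1.25, 2.08 and 1.48. The share of all genes rising was 10.2%, 6.82% and 8.54% at these times, and the share falling was 6.85%, 1.26% and 4.08%. The fall was that of Lama2 (-1.56, SE 0.39, q = 0.00275), a laminin chain. Spp1 (osteopontin), a ligand of alphav integrins, rose by 5.42 (SE 0.23, q = 1.93e-12) on dpi 2 and passed the filtration on dpi 2 and dpi 42. The filtration was passed by rises of 2 ligands on dpi 2 (Spp1 and Ccn2), 0 on dpi 10 and 1 on dpi 42. Rises passing it made up 2.11%, 0.693% and 1.16% of all genes. Col1a1 (collagen I) rose by 5.796 (SE 0.41, q = 4.2e-09) and Tgfb1, carrier of the latency peptide bound by alphav integrins, by 4.32 (SE 0.32, q = 6.65e-09) on dpi 10, and Vtn (vitronectin) by 4.07 (SE 0.41, q = 4.16e-07) on dpi 42. Col1a1 rose by 6.62 in total RNA on dpi 10 and was OL depleted at that time (-2.32). In the same OL libraries 5 fibroblast markers, 1 of which is Col1a1, summed to 47.9 to 83.4 CPM in naive tissue, 201 to 267 on dpi 2, 522 to 605 at 10 days and finally 205 to 268 at 42 days, and their part in the ligand counts was not tested.

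Of 30 signalling genes downstream of integrins, 1 rose and 2 fell in OL on dpi 2, 1 rose on dpi 10, while on dpi 42 1 rose and 1 fell. On dpi 2 this is 3.33% rising, under the share of all genes (10.2%), and 6.67% falling, about the share of all genes (6.85%). The kinase gene Pak1 (-1.13, SE 0.13, q = 5.17e-07) and Ptk2b, the relative of Ptk2 (-1.004, SE 0.22, q = 0.00110), fell on dpi 2, and Arhgef6, an exchange factor for Rac, fell on dpi 42 (-1.57, SE 0.35, q = 0.00144). The rise at each time was that of Lyn, a kinase known from blood cells (2.93, SE 0.37, q = 2e-06 on dpi 2).

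Of 25 other actin adaptors, 5 rose and 1 fell on dpi 2, 3 rose on dpi 10 and 5 on dpi 42. The share rising was 20%, 12% and 20%, and 4% fell on dpi 2, under the share of all genes that fell. Flnc (filamin C, an actin cross-linker) rose by 2.91 (SE 0.21, q = 1.04e-09) and Vasp by 1.31 (SE 0.16, q = 1.03e-06) on dpi 2, while Sorbs3 (vinexin) fell by 1.03 (SE 0.13, q = 2.16e-06). Flna, Palld and Tgfb1i1 rose on dpi 2 as well, Flnc, Tgfb1i1 and Kank2 rose on dpi 10, and these with Palld and Trip6 on dpi 42. Of 15 regulators and cell-surface partners of integrins, 6 rose and 1 fell on dpi 2, 4 rose on dpi 10 and 5 on dpi 42. The share rising was 40%, 26.7% and 33.3%. The tetraspanin genes Cd9 (1.82, SE 0.11, q = 1.97e-10) and Cd63 (2.92, SE 0.20, q = 8.25e-10) and Fblim1 (migfilin, 5.34, SE 0.63, q = 1.03e-06) rose at each time (dpi 2 values), as did Dok1 (1.51), and Fblim1 passed the filtration on dpi 2. In total RNA on dpi 2, Cd9, Cd63, Fblim1 and Dok1 rose by 2.55, 2.48, 2.84 and 2.69. Differential OL enrichment of Cd9 was -0.73 on dpi 2 and -1.17 on dpi 10. Fblim1 was OL depleted in naive tissue (-4.25) and on dpi 2, 10 and 42 (-1.75, -3.51 and -2.51). Cd151 rose on dpi 2 and dpi 42 and Dab2 on dpi 2, and the fall was that of Apbb1ip (RIAM, -1.60, SE 0.26, q = 5.12e-05), which brings talin to integrins. That fall passed the filtration too, while Apbb1ip rose in total RNA on dpi 2 (1.90). Lama2, Ptk2b, Arhgef6, Apbb1ip and the genes given here without values were named after their values had been seen.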

How the data were processed

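The 24 libraries were polyA RNA from spinal cord of naive and injured OL-Ribotag mice, with OL and total RNA of 3 tissue pools in each of 4 groups. The authors aligned reads with STAR to GRCm38 and counted them per gene with HTSeq, and the deposited table holds raw counts for 21965 genes, not normalized. The submitters' processing notes name FastQC 0.10.1 and HTSeq 0.10.0, and the strand setting of the counting is not given in the sources used here. All columns belonged to the samples. The depth of 25840127 to 32987841 counts per library sets the precision, and 3 counts are taken as the floor.

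Counts were fitted in R 4.3.3 with edgeR 4.0.16 (quasi-likelihood test, TMM factors, 1 model of 8 group means) on the 17167 genes whose counts summed to 10 or more, and p-values were adjusted by Benjamini-Hochberg over all of them (q). Comparisons were OL against total RNA in each group, each time point against naive and dpi 42 against dpi 2 in either RNA, and the interaction of time and RNA. Calls needed a log2 change past 1, or 0.5 for OL enrichment, with q under 0.05. The study's filtration keeps OL changes that go with a differential OL enrichment past 1 of equal sign, or with OL enrichment over 1 in naive tissue and at that time. Pools were separate mice, so p-values measure the spread between pools. The script was tested on simulated data. Alternatives were DESeq2 1.42.0 (Wald test), its size factors, library sizes alone, other filters, a fit of the compared groups alone, a replicate block, and leaving out single libraries, the pool with Y-linked counts or the libraries with conflicting labels.

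OL and total RNA with the same pool number come from the same mice by the study's methods. The correlation of their deviations from the group means was 0.0408 to 0.137 in naive tissue, 0.0879 to 0.108 on dpi 2, 0.0245 to 0.0630 on dpi 10 and -0.0109 to 0.0200 on dpi 42. Between different pools it was -0.105 to 0.0502, -0.0781 to -0.0184, -0.0365 to 0.0117 and -0.0280 to 0.0253 in the same order. On dpi 42 the same-pool range lies within that of different pools, so these values do not show the pairing there. Enrichment with a block for the pool is printed where it changes a call.

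Members and lists were chosen with earlier results of these data known. Values in every library are given for members whose OL change passed the filtration, for members with OL enrichment over 1 in naive tissue, and for the 2 of highest length-scaled OL level in each role, and at most 4 genes of each pathway list are named by the smallest unadjusted p in an OL change. Promoter sequences are from RefSeq (GRCm38.p6), gene models from GENCODE M21.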

Additional observations from a re-analysis of the deposited data

Results flagged for a closer look

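The following values were singled out because the effect differed between groups by a test of the difference itself (edgeR quasi-likelihood test with Benjamini-Hochberg adjustment). Groups of 3 libraries were not tested for outlying samples. The OL change and the total RNA change against naive differed on dpi 2 for Parvb (2.26), Itgb3 (-1.996), Itga4 (-1.95), Itgb5 (-1.82), Lims2 (-1.75), Tln1 (-1.72), Itgb2 (-1.49), Pxn (-1.40), Itgb1 (-1.23) and Lims1 (-1.16). They differed on dpi 10 for Itgb5 (-2.20), Tln1 (-1.41) and Pxn (-1.15). They differed on dpi 42 for Itgb5 (-1.92), Tln1 (-1.46), Itgb3 (-1.32) and Lims2 (-1.24). Each value is the OL change minus the total RNA change in log2. Between dpi 42 and dpi 2, Itgax (3.78), Lims2 (1.34), Itga7 (-1.83) and Parvb (-1.72) differed in OL, and Itgax (4.21) and Itga5 (-1.47) differed in total RNA.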

How the results depend on the processing

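Of 4387 values of single members under an alternative, 3946 kept direction and side of the threshold, 184 no longer passed, 220 passed in addition and 37 changed sign. Of the numbers of called members, 208 stayed within 1.5 times the main number and 17 did not. In the fit of the compared groups alone, 6 members changed in OL on dpi 42 (main 11), 22 in total RNA on dpi 10 (main 14) and 6 in total RNA between dpi 42 and dpi 2 (main 2). With DESeq2, 6 had differential OL enrichment on dpi 10 (main 3) and 8 changed in OL between dpi 42 and dpi 2 (main 4). The cause was not tested. Leaving out 1 library gave 15 to 19, 8 to 11 and 9 to 13 members changed in OL on dpi 2, 10 and 42, 11 to 15, 13 to 15 and 9 to 11 in total RNA, 23 to 27, 22 to 26, 22 to 23 and 23 to 27 enriched or depleted in naive tissue and on dpi 2, 10 and 42, 9 to 15, 3 to 11 and 3 to 9 with differential OL enrichment, and 4 to 8 in OL and 2 to 4 in total RNA between dpi 42 and dpi 2. Against TMM, library sizes alone shifted the median of all genes by -0.51, -0.57, -0.57 and -0.50 for enrichment and by 0.20, 0.16 and 0.11 for total RNA changes. The enrichment calls lost with library sizes alone were Itgav (0.48), Parvb and Tln2 on dpi 2, Tln1 and Ilk on dpi 10 and 42, Itgad on dpi 10 (1.31) and Tln2 on dpi 42, besides the naive ones named above. The OL falls of Itgb8 (-0.93) and Itgb3 (-0.90) on dpi 2 and of Itgb3 on dpi 42 (-0.88) also dropped below the size threshold.

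The replicate block used the tissue pool for enrichment and differential OL enrichment, where same-numbered libraries share mice. For changes it used the number, which is only a name there: same-numbered libraries of different groups correlated from -0.309 to 0.248. With the block 16, 10 and 11 members changed in OL (main 18, 10 and 11), and the calls lost were Parvg and Itgad on dpi 2 and Itgb3 on dpi 42 (-0.98). Itga4 was gained on dpi 42. Apart from the calls with a pool block given above and the gain of Itga5 and Tln2 in OL between dpi 42 and dpi 2, the block changed no other call.

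Values that changed sign follow, with the main value in parentheses. Itgb7 in the OL change of dpi 2 against naive (1.99) was -0.37 without dpi 2 OL pool 1, and -0.37 to 2.52 over all single omissions. Itga2 in the OL change of dpi 2 against naive (-0.52) was 0.015 without naive OL pool 3 and 0.053 without the pool with Y-linked counts, and -4.11 to 0.015 over all single omissions. Itga6 in the OL change of dpi 2 against naive (0.36) was -0.14 without naive OL pool 1, -0.18 without naive OL pool 2 and -0.28 without dpi 2 OL pool 3, and -0.28 to 2.27 over all single omissions. Parva in the OL change of dpi 10 against naive (0.23) was -0.043 without naive OL pool 1 and -0.055 without naive OL pool 2, and -0.055 to 1.03 over all single omissions. Vcl in enrichment in naive tissue (-0.43) was 0.032 without naive OL pool 1, and -1.07 to 0.032 over all single omissions. Lims2 in enrichment in naive tissue (0.45) was -0.073 with library sizes alone. Itga2 in enrichment on dpi 2 (-1.71) was 0.046 without the pool with Y-linked counts. Itgb1 in enrichment on dpi 2 (-0.08) was 0.054 without the pool with Y-linked counts. Tln1 in enrichment on dpi 2 (0.48) was -0.089 with library sizes alone. Tln2 in enrichment on dpi 2 (0.55) was -0.025 with library sizes alone. Itgb1 in enrichment on dpi 42 (0.44) was -0.061 with library sizes alone. Itga6 in differential OL enrichment of dpi 10 against naive (-0.08) was 0.78 with the replicate block and 1.77 without naive OL pool 3, and -0.68 to 1.77 over all single omissions. Itga7 in differential OL enrichment of dpi 42 against naive (0.55) was -0.038 without naive OL pool 2 and -0.0058 without dpi 42 OL pool 1, and -0.038 to 1.89 over all single omissions. Itga6 in differential OL enrichment of dpi 42 against naive (0.10) was -0.50 without naive OL pool 1, -0.54 without naive OL pool 2, -0.15 without dpi 42 OL pool 1, -0.19 without dpi 42 OL pool 2 and -0.039 without the libraries with conflicting labels, and -0.54 to 1.91 over all single omissions. Itgb7 in the OL change of dpi 42 against dpi 2 (0.21) was -0.38 without dpi 2 OL pool 2, -0.19 without dpi 2 OL pool 3, -0.11 without dpi 42 OL pool 1, -0.12 without the libraries with conflicting labels and -0.37 without the pool with Y-linked counts, and -0.38 to 2.51 over all single omissions. Parvg in the OL change of dpi 42 against dpi 2 (-0.02) was 0.16 with the replicate block, 1.88 without dpi 2 OL pool 3, 0.18 without dpi 42 OL pool 1, 0.11 without dpi 42 OL pool 3 and 0.17 without the libraries with conflicting labels, and -0.59 to 1.88 over all single omissions. Itga9 in the OL change of dpi 42 against dpi 2 (-0.09) was 0.13 without dpi 2 OL pool 3, 0.30 without dpi 42 OL pool 2 and 0.29 without dpi 42 OL pool 3, and -1.52 to 0.30 over all single omissions. The cause was not tested. Depth limits members of a few counts per naive OL library (Itga10, Itgax, Itga5), and no other prior count was tried for their fitted changes.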
